A study of Mus musculus with 8 samples.

Results

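Genes of the dorsal lateral ganglionic eminence and of olfactory bulb interneurons were followed in the striatum of newborn mice lacking Ctip2: Sp8, Th, Calb2, Pax6, Tshz1, Vax1, Prokr2, Trh, Gsx2 and Dcx. They were chosen by name, as every probe set that the array's annotation gives to one of these symbols. The names were picked with earlier results of these data known. Counts of members set against shares of the array thus describe and do not test. All 10 genes had at least 1 probe set, and together they had 20 of the 45037 on the array, which represent 18193 genes. The RNA came from tissue punched out of the middle of the striatum on postnatal day 0 in BALB/c mice. The groups were Ctip2 null mutants (4 mice), a Ctip2 heterozygote (1 mouse) and wild type mice (3 mice), with 1 Affymetrix array for each mouse. The labels name the allele only as a Ctip2 null. The part of the gene that it removes was not given in the sources used here. Signal from probes beyond it would say nothing of the labels. Values are log2 expression per probe set, so a difference of 1 is a factor of 2. They rank arrays on 1 probe set but not genes against each other. A difference was called when the limma p, adjusted over all probe sets, was under 0.05. In bulk tissue of this kind, fewer cells of a type and less RNA per cell cannot be told apart.

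Olfactory bulb interneurons are born next to the striatum, in the dorsal part of the lateral ganglionic eminence and later in the subventricular zone. They travel as doublecortin-positive neuroblasts along the rostral migratory stream and settle as GABA-releasing granule and periglomerular cells. Periglomerular cells fall into types marked by tyrosine hydroxylase or by calretinin. The transcription factors Gsx2, Pax6, Sp8, Vax1 and Tshz1 act at different steps of this path, while striatal projection neurons arise from the neighbouring ventral part of the same eminence.

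The targeted gene was checked first. Bcl11b, the current symbol of Ctip2, read 11.13, 11.10, 11.47 and 11.03 in the null arrays on its brightest probe set, 12.43 in the heterozygote, and 12.45, 12.00 and 12.42 in wild type. The null arrays all lay below the others, with a difference of -1.11 (adjusted p = 0.0091, and 0.0563 without wild type 3). Of 13 medium spiny neuron markers, which define the labelled tissue, 11 read above the median of every array, and 5 were lower in null striatum. Of the other 2, Pdyn, the prodynorphin gene, read below the median on all 8 arrays and Gpr6 on 4. Pdyn was chosen after its values were seen. Array medians lay between 6.21 and 6.35. The spread of log2 values over an array, as an SD, was 1.90 to 2.05 in null arrays, 2.06 in the heterozygote and 1.84 to 1.97 in wild type, so the null and wild type ranges overlapped. Its part in the results was not tested beyond the fit that holds it as a covariate. The choroid plexus gene Ttr, whose product carries thyroid hormone, ranged from 7.11 to 13.44 in null arrays, read 7.44 in the heterozygote and ranged from 9.37 to 13.34 in wild type. It was highest in null 2 and wild type 1.

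Of the 20 probe sets, 5 were called higher in null striatum, 0 were called lower and 15 were not called. Over the whole array 1.87% of probe sets were called higher and 0.453% lower. At an unadjusted p under 0.05, 9 were higher and 2 lower, against 10.9% and 8.74% of the array. The SAM d statistic beyond 2, the kind of score that the study used, gave 9 and 2 as well, against 10.3% and 12.7%. With 1 probe set per gene, 3 of the 10 genes were called higher, Dcx, Calb2 and Tshz1, against 2.38% of all genes. Th joined them when p was adjusted over genes in place of probe sets, which made 4 higher against a background of 2.86% and 0 lower against 0.786%. Null and wild type arrays were fully separated on 10 probe sets, with the null arrays above on 9 and below on 1. Over the whole array they were separated with null above on 7.7% and with null below on 8.85%. By gene, null arrays lay above for 5 of the 10, against 8.59% of all genes, and below for 0, against 9.62%. An unadjusted p under 0.05 was met upward by 5 genes and downward by 1, against 12.3% and 9.88%. The median difference was 0.43 over the 20 probe sets and -0.08 over all probe sets. With the array SD as a covariate, 1 of the 20 was called higher against 0.42% of the array, and 0 were called when the heterozygote was added to the wild type arrays, against 0.244%. At an unadjusted p those fits held 9 and 7 higher member probe sets. The share of the array at that p was not worked out for those fits, so these counts have no background.

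**Figure D1:**
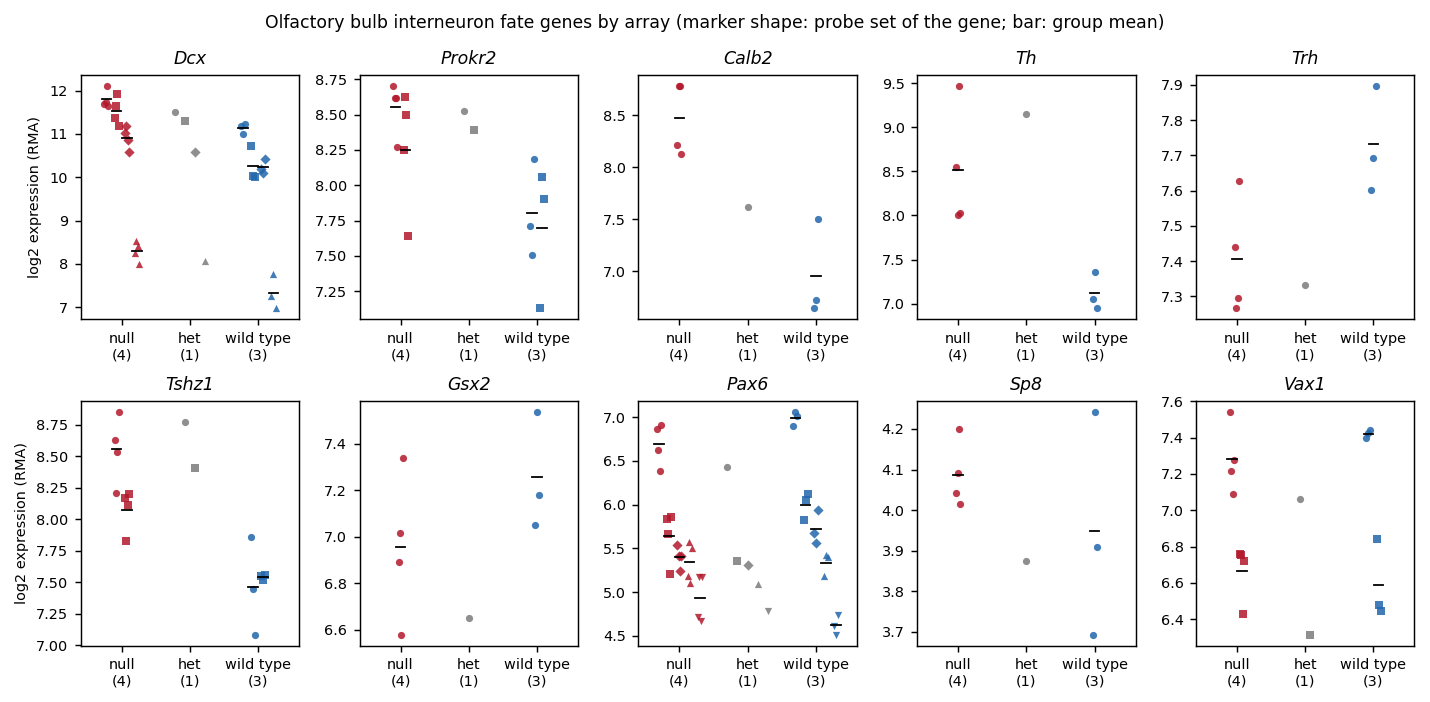
Log2 expression (RMA, y axis) of the 10 genes in 4 null, 1 heterozygote (het) and 3 wild type arrays (x axis). Each point is 1 array, marker shapes separate the probe sets of a gene and bars are group means. The points for null arrays lie above all wild type points on every probe set of Dcx, Tshz1, Calb2 and Th, and the groups overlap for Gsx2, Sp8 and Vax1.

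The migration genes come first. Dcx encodes doublecortin, a microtubule-associated protein of migrating neuroblasts and young neurons. It rose on 3 of its 4 probe sets, and on all 4 the null arrays lay above wild type. On 1418141_at, the one of largest difference, null arrays read 11.37, 11.65, 11.93 and 11.20, the heterozygote 11.31, and wild type arrays 10.73, 10.04 and 9.998. The lowest null array thus stood above the highest wild type array, and the heterozygote stood within the null range. The means were 11.54 ± 0.32 (SD, n = 4) in null and 10.26 ± 0.41 (SD, n = 3) in wild type striatum, 2.43-fold higher (adjusted p = 0.0207). On the brightest probe set, 1418139_at, null arrays read 11.70, 11.74, 12.12 and 11.65, the heterozygote 11.51, and wild type arrays 11.19, 11.001 and 11.23. That is 1.58-fold higher, with an adjusted p of 0.0497 that lies just under the threshold, and the heterozygote stood between the groups. The dimmest, 1448974_at, was 1.94-fold higher (adjusted p = 0.0422). The remaining probe set, 1418140_at, differed by 0.68 without passing (adjusted p = 0.0619). The difference was positive on each of the 4 probe sets under every alternative fit. With all null arrays above wild type, leaving arrays out could not turn that sign. Fits that change only the variance or the adjustment keep the same difference. The constant sign is thus no separate support. The call on 1418141_at was lost without null 1 (0.0515), null 2 (0.0720), wild type 2 (0.0951) or wild type 3 (0.103). The call on 1418139_at was lost without null 1, 2 or 3 or any 1 wild type array (0.0557 to 0.183), and that on 1448974_at without null 1, 2 or 3 or wild type 1 or 3 (0.0633 to 0.158). These 2 calls were also lost with median centring (0.0694 and 0.0650), quantile normalization (0.0651 and 0.0695) or the array SD as a covariate (0.248 and 0.245). Leaving out both arrays of highest Ttr removed them too (0.132 and 0.160). Adding the heterozygote to wild type removed all 3 calls (0.195 to 0.263).

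The stretch before the start of Dcx is shown because Dcx is the member with the most called probe sets. The RefSeq table lists 2 starts for it in build GRCm38.p6, whose windows overlap. Below are the 250 bases before the upstream start, at chrX:143933220-143933469 on the minus strand, 5′ to 3′, with a homeodomain core motif in capitals.
Dcx: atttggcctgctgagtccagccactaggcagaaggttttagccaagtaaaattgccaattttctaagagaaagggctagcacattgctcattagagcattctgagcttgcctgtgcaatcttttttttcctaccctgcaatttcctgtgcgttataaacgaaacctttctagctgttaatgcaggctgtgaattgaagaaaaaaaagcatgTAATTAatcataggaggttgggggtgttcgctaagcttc
The motif TAATTA, the same on both strands and a core that homeodomain proteins such as Gsx2, Vax1 and the Dlx factors can bind, began 39 bases before this start. It was present in 4.84% of all 32851 windows of the same length. A match is a description of the letters and not a site.

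Prokr2 encodes a receptor for prokineticin 2, a secreted protein that attracts neuroblasts into the olfactory bulb. On its brighter probe set null arrays read 8.70, 8.62, 8.62 and 8.27, the heterozygote 8.52, and wild type arrays 7.71, 7.51 and 8.18. The groups did not overlap, and the difference of 0.75 (95% interval 0.35 to 1.15) did not pass, with an adjusted p of 0.0647 over probe sets and 0.0532 over genes. On the other probe set the groups overlapped and the difference was 0.56 (adjusted p = 0.286). The ligand gene Prok2 differed by -0.21 (adjusted p = 0.439). The related receptor gene Prokr1 differed by -0.64 (adjusted p = 0.0728), with all 4 null arrays, at 5.68 to 6.19, below the wild type arrays at 6.29 to 6.71. Prok2 and Prokr1 were chosen after their values were seen.

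Calb2 encodes calretinin, a calcium-binding protein of granule and periglomerular interneurons. It had the largest difference of the 20 probe sets. Null arrays read 8.22, 8.78, 8.78 and 8.13, the heterozygote 7.62, and wild type arrays 6.65, 6.73 and 7.5002. The null arrays all lay above wild type, and the heterozygote stood just above the highest wild type array. The mean was 8.48 ± 0.35 (SD, n = 4) in null and 6.96 ± 0.47 (SD, n = 3) in wild type striatum, 2.86-fold higher, with a 95% interval of 1.96 to 4.18 (adjusted p = 0.0153). The call was lost without null 2 (0.0537), wild type 2 (0.0719), or both arrays of highest Ttr (0.0905), by adding the heterozygote to wild type (0.0582) and by fitting the array SD as a covariate (0.129).

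Th encodes tyrosine hydroxylase, the enzyme of the rate-limiting step of dopamine synthesis and a marker of dopaminergic periglomerular cells. Null arrays read 8.55, 8.01, 9.47 and 8.03, the heterozygote 9.15, and wild type arrays 7.05, 7.36 and 6.95. Every null array lay above every wild type array, and the heterozygote read higher than 3 of the 4 null arrays. The mean was 8.51 ± 0.69 (SD, n = 4) in null and 7.12 ± 0.21 (SD, n = 3) in wild type striatum, a factor of 2.63 with a 95% interval of 1.61 to 4.30. The adjusted p was 0.0551 over probe sets and 0.0431 over genes, so the call depends on which features the adjustment runs over. With 1 array left out it passed without null 3 (0.0298) or null 4 (0.0319), and lay between 0.0742 and 0.201 without null 1, null 2 or any 1 wild type array. With the array SD as a covariate it was 0.357. When the heterozygote was added to wild type it was 0.621.

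The start of Th is shown because a dopaminergic gene is among those that separate the groups. These are the 250 bases before it, at chr7:142899996-142900245 on the minus strand of GRCm38.p6 from RefSeq, with a GC box and a cyclic AMP response element in capitals.
Th: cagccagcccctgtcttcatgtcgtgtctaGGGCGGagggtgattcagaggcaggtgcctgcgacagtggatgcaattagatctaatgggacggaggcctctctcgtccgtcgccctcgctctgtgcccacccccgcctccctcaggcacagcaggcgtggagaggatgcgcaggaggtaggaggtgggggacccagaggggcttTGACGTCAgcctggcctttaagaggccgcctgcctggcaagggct
The palindrome TGACGTCA, the element bound by CREB, began 45 bases before the start and was present in 1.55% of all windows. The GC box GGGCGG, searched on both strands as were all motifs, was present in 32.7%. Over the 12 starts of the 8 member genes looked up in this table, TGACGTCA was found in 2, TAATTA in 3 and GGGCGG in 5. The overlapping Dcx windows hold 1 and the same TAATTA match and count for 2 of those 3. TGACCA, a motif known for the human paralogue BCL11A, was found in 0 of the 12 and in 11.4% of all windows. These motifs do not overlap in the windows shown. Calb2 and Tshz1 were not among the 8 genes, so Dcx is the only gene called over probe sets that these counts cover.

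Other genes of dopamine chemistry were read from a list of 17 measured genes for synthesis, storage, breakdown and dopaminergic transcription factors. Of these, 2 rose, 0 fell and 15 were not called, against 2.38% higher and 0.676% lower over all genes. At an unadjusted p under 0.05, 3 were higher and 4 lower, against 12.3% and 9.88% of all genes. By SAM 3 were higher and 5 lower, against 10.3% and 12.7% of all probe sets. Ddc encodes the decarboxylase that acts after tyrosine hydroxylase. It read 7.08, 7.39, 7.89 and 6.96 in null arrays, 6.35 in the heterozygote, and 5.70, 5.32 and 5.98 in wild type, and rose 3.17-fold (adjusted p = 0.0086). Its second, dimmer probe set differed by -0.29 without passing (adjusted p = 0.426). Slc18a2 encodes the vesicular monoamine transporter. It read 4.93, 5.55, 5.69 and 4.30 in null arrays, 5.17 in the heterozygote, and 3.82, 3.41 and 3.78 in wild type, and rose 2.73-fold (adjusted p = 0.0399). Both Ddc and Slc18a2 separated the groups, and all Slc18a2 values lay below the array medians, where no detection limit was set. The other genes on the list include markers of midbrain dopamine neurons. The transporter gene Slc6a3 differed by -0.20 (adjusted p = 0.442) and the factor genes Nr4a2 and Pitx3 by -0.28 (adjusted p = 0.332) and -0.38 (adjusted p = 0.195), all 3 chosen after their values were seen. The list's median difference was -0.14, close to the -0.08 of all genes.

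**Figure D2:**
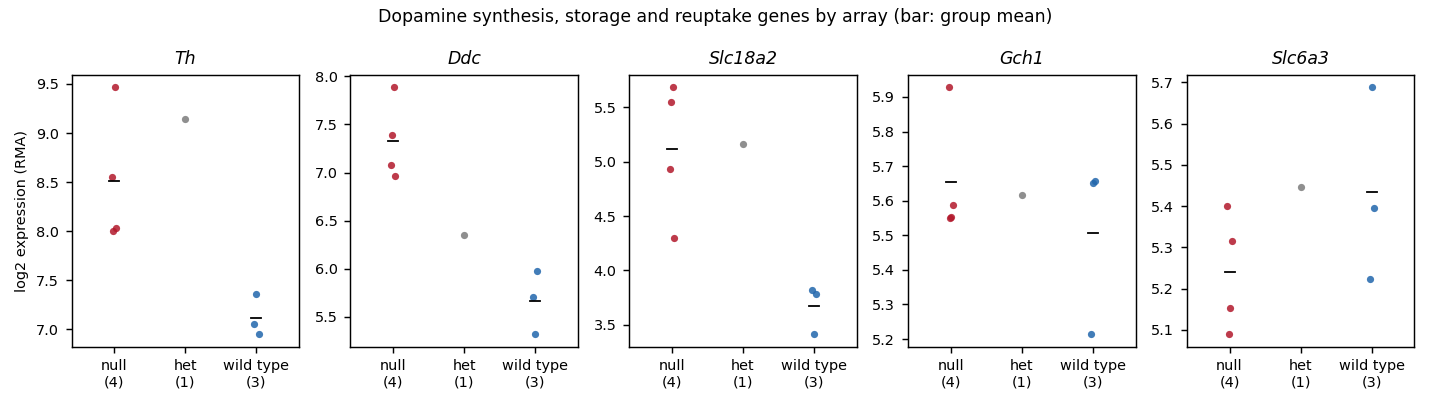
Log2 expression (RMA, y axis) of Th, Ddc, Slc18a2, Gch1 and Slc6a3 in 4 null, 1 heterozygote (het) and 3 wild type arrays (x axis), each point 1 array and bars group means. Th, Ddc and Slc18a2 separate null from wild type arrays, and Gch1, the enzyme gene for the cofactor of tyrosine hydroxylase, and Slc6a3 do not. Gch1 and Slc6a3 were not named by the rule for list genes.

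The Ddc call was lost with the array SD as a covariate (adjusted p = 0.0625) and without both arrays of highest Ttr (0.0616). The Slc18a2 call was lost without null 1, 2 or 3 or wild type 2 or 3 (0.0733 to 0.163), and was 0.393 with the heterozygote added to wild type.

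Trh encodes the precursor of thyrotropin-releasing hormone, a peptide that hypothalamic and some olfactory bulb neurons make. Null arrays read 7.44, 7.27, 7.29 and 7.63, the heterozygote 7.33, and wild type arrays 7.60, 7.69 and 7.90. The groups overlapped at 1 null array, and the difference was -0.32 (95% interval -0.63 to -0.02, adjusted p = 0.236). Of 9 measured genes for its receptors and for prohormone processing, 0 were called in either direction by limma, 3 were higher at an unadjusted p under 0.05, and SAM gave 3 higher. Over all genes 12.3% were higher at that unadjusted p, and SAM gave 10.3% of all probe sets higher. The receptor gene Trhr had the largest difference, 1.07 (adjusted p = 0.149), with the heterozygote at 7.05, above null arrays of 5.33 to 6.57 and wild type arrays of 4.28 to 5.32. Qpct, whose enzyme forms the pyroglutamate end of such peptides, differed by 0.50 (adjusted p = 0.178).

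Among the transcription factors, Tshz1 rose. Tshz1 is a teashirt zinc finger protein that olfactory bulb interneurons need to mature, and Prokr2 is known as one of the genes that depend on it there. On 1427233_at null arrays read 8.63, 8.21, 8.53 and 8.85, the heterozygote 8.77, and wild type arrays 7.86, 7.45 and 7.08. The groups were separated, and the heterozygote stood in the upper part of the null range. The difference was 1.09, with a 95% interval of 0.63 to 1.55 (adjusted p = 0.0270). The second probe set, 1427232_at, also separated the groups, with null arrays at 8.17, 7.83, 8.11 and 8.20, the heterozygote at 8.41, and wild type arrays at 7.55, 7.52 and 7.56, but its difference of 0.54 did not pass (adjusted p = 0.0647). The call on 1427233_at was lost without null 1 (0.0798), null 3 (0.0560), wild type 2 (0.104) or wild type 3 (0.111), and was 0.460 with the heterozygote added to wild type. Quantile normalization (0.0645) and the array SD as a covariate (0.143) also removed that call.

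Gsx2, Pax6, Sp8 and Vax1 were not called on any of their 9 probe sets. Gsx2, the homeobox factor that patterns the lateral ganglionic eminence, read 6.89, 7.02, 6.58 and 7.34 in null arrays, 6.65 in the heterozygote, and 7.05, 7.54 and 7.18 in wild type. The groups overlapped, and the difference was -0.30 (95% interval -0.73 to 0.13, adjusted p = 0.379). Pax6, a paired-homeobox factor of dopaminergic periglomerular cells, had 5 probe sets, of which 3 differed downward, by -0.30 to -0.36, and 2 upward, by 0.0047 and 0.32 (adjusted p 0.235 to 0.986). On 1425960_s_at the null arrays, at 5.24 to 5.54, lay below wild type arrays at 5.56 to 5.94. This is the only one of the 20 member probe sets with that order. Sp8, a zinc finger factor of calretinin and dopaminergic interneurons, differed by 0.14 (95% interval -0.19 to 0.47, adjusted p = 0.575). Vax1, a homeobox factor of the ventral forebrain, differed by -0.14 and 0.08 on its 2 probe sets (adjusted p = 0.532 and 0.759). Sp8 and 4 probe sets of Pax6 lay below the median of every array, so the array says least about these. The 95% intervals of these 9 probe sets reach as far as -0.75 and 0.68 log2 units.

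**Figure D3:**
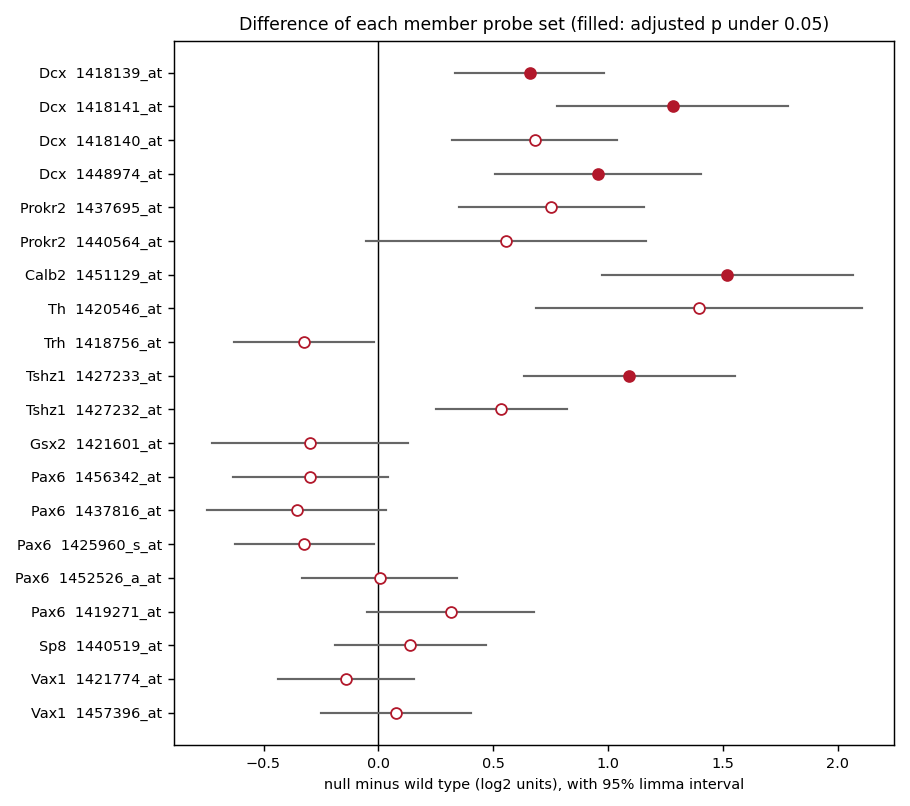
Null minus wild type difference (x axis, log2 units) of each of the 20 probe sets (y axis), with bars for the 95% limma interval. Filled points passed an adjusted p of 0.05: 3 of Dcx, 1 of Calb2 and 1 of Tshz1, and the intervals of Gsx2, Sp8 and Vax1 all include 0.

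The heterozygote array was left out of the comparison of null with wild type and entered only the alternative fits named as holding it. It read above the wild type range on 11 of the 20 probe sets, namely all probe sets of Dcx, Prokr2, Calb2, Th and Tshz1 and 1 of Pax6. It read below that range on 8 and within it on 1. Over the whole array it read above on 27.4% and below on 43.7% of probe sets. It stood above wild type by more than the wild type range on 4 of the 20, against 9.64% of the array. On Th, both probe sets of Tshz1 and the dimmer one of Prokr2 it stood above the null mean.

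A wider list of fate factors of the dorsal lateral ganglionic eminence and olfactory bulb was also chosen with earlier results of these data known. Of 20 measured genes 5 rose, 0 fell and 15 were not called, with 10 higher and 0 lower at an unadjusted p under 0.05 and 10 higher and 1 lower by SAM. Over all genes 2.38% were called higher and 0.676% lower, and 12.3% and 9.88% at an unadjusted p. SAM gave 10.3% and 12.7% of all probe sets. The median difference of the list was 0.45. Tshz2, a teashirt paralogue of Tshz1, read 8.23, 8.35, 9.03 and 8.14 in null arrays, 8.30 in the heterozygote, and 6.87, 7.06 and 6.67 in wild type, and rose 2.97-fold (adjusted p = 0.0074). The groups were separated, as they were for Tshz1. Pbx3, a homeobox cofactor gene named after its values were seen, rose 1.78-fold (adjusted p = 0.0308). The homeobox genes Dlx1, Dlx2 and Six3 were the other 3, rising 3.53-fold, 2.84-fold and 2.58-fold. Gsx1, the paralogue of Gsx2 and not named by the rule for list genes, differed by -0.07 (adjusted p = 0.807). The list held 2 higher genes with the heterozygote added to wild type or without both arrays of highest Ttr, and 3 without wild type 2, without wild type 3 or with the array SD as a covariate.

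Of 25 measured genes of migrating neuroblasts 4 rose, 0 fell and 21 were not called, with 11 higher and 2 lower at an unadjusted p and 10 higher and 2 lower by SAM. The shares over all genes were 2.38% and 0.676% for calls, and 12.3% and 9.88% at an unadjusted p. By SAM the shares were 10.3% and 12.7% of all probe sets. The guidance receptor genes Nrp1 and Dcc rose 4.19-fold and 3.01-fold. Tnr, the extracellular matrix gene tenascin-R that acts on neuroblasts leaving the migratory stream, rose 2.19-fold (adjusted p = 0.0139). It read 4.96, 4.74, 5.34 and 4.91 in null arrays, 4.26 in the heterozygote, and 4.09, 3.54 and 3.93 in wild type. Nrg3, a neuregulin gene, rose 1.63-fold (adjusted p = 0.0436). Tnr read below the median on all 8 arrays and Nrg3 on 7, where no detection limit was set. The Nrg3 call was lost in 10 alternative fits and kept in 8, and the Tnr call was lost in 3. The list held 2 higher genes without wild type 2 or 3, with dim probe sets left out, with the heterozygote added to wild type or with the array SD as a covariate. Among genes named after their values were seen, Tubb3, a tubulin gene of all young neurons, differed by 0.05 (adjusted p = 0.794), and the polysialic acid enzyme genes St8sia2 and St8sia4 by 0.77 and 1.02 (adjusted p = 0.0756 and 0.106).

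Markers of interneurons, progenitors and striatal projection neurons were read on the same arrays. Over all genes 2.38% were called higher and 0.676% lower. Of 12 interneuron transmitter and calcium-binding genes, the GABA enzyme gene Gad1 alone rose, 2.67-fold (adjusted p = 0.0041), with Gad2 at 0.73 (adjusted p = 0.0632). In which cells Gad1 differed was not tested. At an unadjusted p under 0.05, 3 of the 12 were higher and 1 lower, against 12.3% and 9.88% of all genes. By SAM 3 were higher and 2 lower, against 10.3% and 12.7% of all probe sets. The gene lower at the unadjusted p was Npy, a peptide gene named after its values were seen. It differed by -0.65 (adjusted p = 0.131), with all null arrays below wild type. Of 8 medial eminence factors Lhx6, which marks interneurons of that origin, rose 2.09-fold (adjusted p = 0.0487), with Maf and Lhx8 at 1.66 and 1.34 (adjusted p = 0.0700 and 0.133). At an unadjusted p under 0.05, 5 of these 8 were higher and 0 lower, and SAM gave the same counts. Their median difference was 0.65, against 0.40 over the 10 member genes, so a rise was not particular to the members. The Lhx6 call was lost without any 1 of null 1, 2 or 3 or of the wild type arrays (0.0704 to 0.182). Of 15 progenitor markers Prom1 and Sox2 rose 2.48-fold and 1.61-fold and 13 were not called, with the mean level of the list at 8.40 to 8.76 in null and 8.39 to 8.52 in wild type arrays. Prom1 was not called without null 2 (0.0553) or wild type 3 (0.0698), nor Sox2 without null 1, 2 or 3 or wild type 2 or 3 (0.0966 to 0.175). Of 13 medium spiny neuron markers 5 fell and 0 rose, with Gpr6, a receptor of indirect pathway neurons, 4.48-fold lower and Arpp21, a phosphoprotein of these neurons, 3.63-fold lower. The list held 1 to 3 lower genes without null 1, 2 or 3 or wild type 2 or 3. The part of these genes in the members' differences was not tested.

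Markers of 5 other cell types had 0 calls in the comparison as reported. Choroid plexus (8 genes), pallial glutamatergic neurons (8), oligodendrocyte lineage (6), microglia (9) and endothelium and blood (8) each had 0 called genes in limma on the 7 arrays, adjusted over probe sets. Among the alternative limma fits, array weights called 3 microglial genes higher, and 1 was called with adjustment over genes, median centring, quantile normalization, or without null 3 or null 4. The share of the array called with array weights was not worked out. At an unadjusted p under 0.05 microglia had 5 higher genes and the other 4 lists 0, and SAM called 5 microglial genes and 1 oligodendrocyte gene higher. Over all genes 12.3% were higher at that unadjusted p, and SAM gave 10.3% of all probe sets higher. The mean level of the microglial list was 7.02 to 7.52 in null, 6.83 in the heterozygote and 6.89 to 6.99 in wild type arrays. The pallial list stood at 5.03 to 5.22 in null and 5.24 to 5.31 in wild type arrays. The largest differences on these lists were Ttr (-1.39, adjusted p = 0.558) and Folr1 (-0.42, 0.356), Slc17a6 (-0.29, 0.294) and Eomes (-0.33, 0.278), Mbp (0.31, 0.257) and Sox10 (-0.12, 0.566), Csf1r (0.67, 0.135) and Tyrobp (0.66, 0.137), and Kdr (0.29, 0.360) and Pecam1 (-0.19, 0.497). Log2 values of this kind have no 0, so absence of a marker cannot be read from them.

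**Figure D4:**
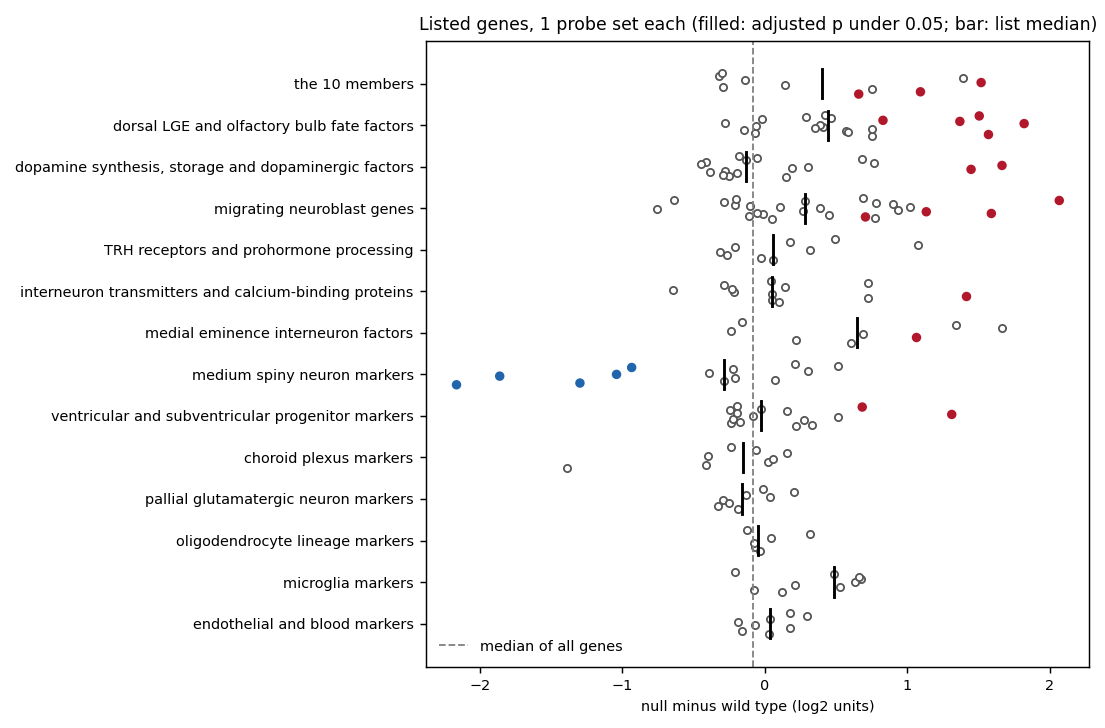
Null minus wild type difference (x axis, log2 units) of each gene, with 1 probe set per gene, in the 10 members and in 13 gene lists (y axis). Filled points passed an adjusted p of 0.05, black bars are list medians and the dashed line is the median of all genes at -0.08. The members spread from -0.32 to 1.52, and the filled points of the medium spiny neuron list all lie to the left.

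The genes most like each called member over the 8 arrays were found by Pearson correlation among the 18192 other genes. The groups stand apart on the 3 members, so these values describe and do not test. Dcx was closest to Sez6 (r = 0.991), Rab2b (0.987) and Prr13 (0.986), and 407 genes had an r above 0.9 with it. Calb2 was closest to Gdap1l1 (0.989), Cdk2ap1 (0.986) and Ctbp2 (0.977), with 151 such genes. Tshz1 was closest to Alcam (0.979), Gad2 (0.967) and Zfp651 (0.967), with 61.

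**Figure D5:**
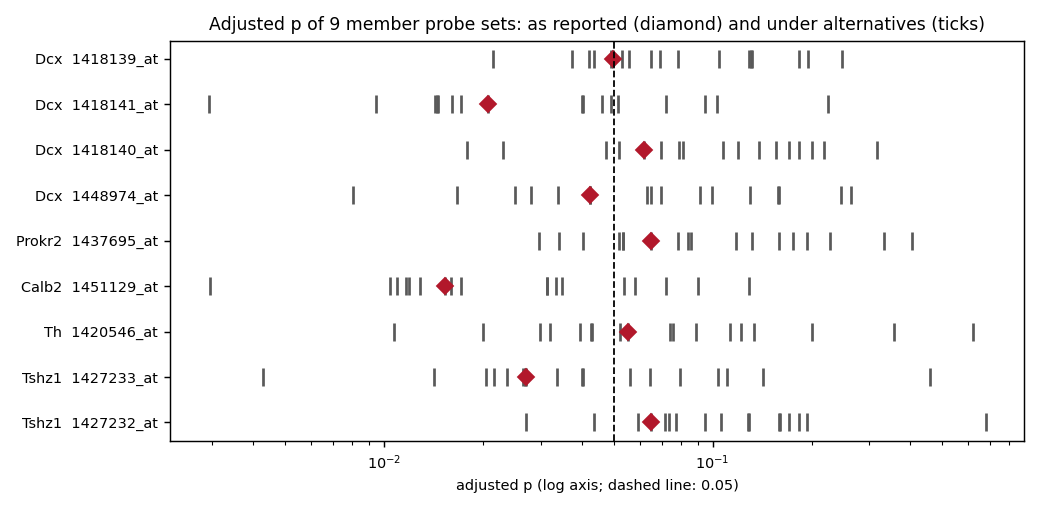
Adjusted p (x axis, log scale) of the 9 member probe sets that were higher at an unadjusted p under 0.05 (y axis), as reported (diamonds) and under the alternative limma fits (grey ticks). The dashed line is the threshold of 0.05, and each of the 9 rows has ticks on both sides of it.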

How the data were processed

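The authors deposited 1 log2 value for each probe set and array. They normalized with RMA, a Bioconductor function, according to the series' design text. This step subtracts background, sets arrays to a common distribution and condenses probes by median polish, which can narrow differences between arrays. The deposited arrays still differed, with medians of 6.21 to 6.35 and SDs of 1.84 to 2.06. Which arrays were normalized together was not given. Filters and the RMA version were not given in the sources used here. The number of arrays limits the precision. The mice are separate animals per that text. The members and gene lists were chosen with earlier results of these data known.

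For each gene the brightest probe set with 1 symbol stood in, by its mean over the 7 null and wild type arrays. These arrays were compared with limma 3.58.1 in R 4.3.3 (lmFit and eBayes, no covariate) with Benjamini-Hochberg adjustment over 45037 probe sets. The fit was tested on simulated data. Errors are SDs. Besides the members and Bcl11b, the rule named from each of 13 lists the 2 genes of largest absolute difference and up to 4 of those called, and the 3 genes most like each called member. Genes on a list that lacked such a probe set were not analysed here. Alternatives were array weights, SAM scores, a robust prior with trend, a filter on dim probe sets, median centring, quantile normalization, adjustment over genes, each array left out, the heterozygote in the fit, the array SD as a covariate and a replicate block.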

Additional observations from a re-analysis of the deposited data

Results flagged for a closer look

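The heterozygote array, which entered only alternative fits, stood above all 3 wild type arrays by more than their whole range on 4 of the 20 member probe sets, as it did on 9.64% of the array. It read 9.15 on Th, 8.77 and 8.41 on the Tshz1 probe sets 1427233_at and 1427232_at, and 11.51 on the Dcx probe set 1418139_at. With 1 such animal there is no spread to set these values against.

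Among the 4 null arrays, 1 array stood apart on 2 of the 54 probe sets looked at, where chance marks about 1 in 20 groups. On the Vax1 probe set 1457396_at, null 3 read 6.43 against 6.72 to 6.76 in the other null arrays, a gap of 0.870 of the range. On Nrg3, null 3 read 6.27 against 5.84 to 5.88, a gap of 0.905 of the range.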

How the results depend on the processing

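Of the 20 member probe sets, 5 were called higher and 0 lower. SAM gave 9 and 2, array weights 9 higher, quantile normalization 2, omission of both arrays of highest Ttr 2, the array SD as a covariate 1 and the heterozygote added to wild type 0. Leaving out 1 array gave 1 to 8 higher: 1 without null 1, null 2, wild type 2 or wild type 3, 3 without null 3 or wild type 1, and 8 without null 4. Of the 10 member genes, 3 were higher and 0 lower. In the same order of settings the counts were 5 and 1, 5, 1, 1, 0 and 0, with 0 to 5 when 1 array was left out, and 0 lower. At an unadjusted p under 0.05, 9 or 10 member probe sets were higher in each limma fit on all 20 except that with the heterozygote as a control, which had 7. Over the whole array SAM gave 10.3% higher and 12.7% lower. The shares called higher were 0.42% with the array SD and 0.244% with the heterozygote as a control. For the other alternative fits over probe sets, and for unadjusted counts in alternative fits, no share of the array was worked out. Shifts of those counts cannot be told from shifts of the whole array. Of all listed genes, 15 were higher and 5 lower. The counts were 44 and 17 by SAM, 34 and 8 with array weights, 6 and 1 with the array SD, 5 and 3 with the heterozygote as a control, 8 and 3 without both arrays of highest Ttr, 2 lower with arrays centred on their median, and 7 to 21 higher and 1 to 6 lower with 1 array left out. The difference of Bcl11b was -1.01 without the pair of highest Ttr (adjusted p = 0.0695) and -1.26 to -1.03 with 1 array left out. The sign turned on the Pax6 probe set 1452526_a_at, at -0.074 with array weights, -0.048 with the replicate block, -0.15 without the pair of highest Ttr and -0.073 to 0.083 with 1 array left out, and on Gsx2, at 0.022 with the array SD. Neither was called in any of these fits. Null and wild type arrays of the same number did not deviate together (r = -0.25, -0.31 and -0.17), and those of different numbers had r from -0.42 to 0.37. Deviations from the means of so few arrays cannot settle whether the numbers pair them. The replicate block, which leaves null 4 without a partner, gave 7 higher member probe sets and 4 higher genes: Calb2 and Tshz1 kept their calls, Th (adjusted p = 0.0201) and Prokr2 (0.0402) gained one, and Dcx lost its call on 1418139_at (0.0531). The cause of these shifts was not tested.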
